A study of Rattus norvegicus with 39 samples.

Results

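Probe sets for the subunits of ionotropic and metabotropic glutamate receptors, GABA-A receptors and glycine receptors were read across 4 groups of aged rats. A probe set was a member when the platform annotation gave it 1 gene symbol alone and that symbol began with Gria, Grin and a digit, Grik, Grid and a digit, Grm, Gabr or Glra. The rule took 65 of the 8799 probe sets on the array, for 41 of the 4737 genes that had a probe set of 1 symbol, and it used no measured value. By receptor class there were 10 AMPA, 14 NMDA, 6 kainate, 1 delta, 9 metabotropic, 20 GABA-A and 5 glycine receptor probe sets.

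RNA of the hippocampal CA1 region was hybridised to 1 Affymetrix rat array per animal, from 39 male Fisher 344 rats aged 18 months. In the Sham group (n = 10) the adrenals were left in place and the pellet was inert. All other animals were adrenalectomized (ADX), which removes the source of their own corticosterone (CORT), and carried a CORT pellet for 3 months. IntermediateCORT animals (n = 9) had a 200 mg pellet, LowCORT animals (n = 10) a 25 mg pellet, and LowInj animals (n = 10) a 25 mg pellet followed by daily intraperitoneal injection of 5 mg CORT for 4 days. Sham and ADX groups therefore differ in surgery as well as in hormone, and 1 ADX animal had been removed from the study by its authors. CA1 tissue holds pyramidal neurons, interneurons and glia, so fewer cells of a type and less RNA per cell cannot be told apart. Values are the deposited log2 values, in which a difference of 1 is a doubling.

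AMPA, kainate and NMDA receptors are cation channels opened by glutamate. AMPA receptors, assembled from Gria subunits, carry most fast excitatory current, and NMDA receptors combine the obligatory Grin1 subunit with Grin2 or Grin3 subunits that set their kinetics and calcium entry. Metabotropic receptors (Grm genes) signal through G proteins and often sit on presynaptic terminals. GABA-A receptors are chloride channels of mixed alpha, beta, gamma and delta subunits, with Gabra5 and Gabrd known from receptors outside the synapse, and glycine receptors are related chloride channels. CORT acts through the mineralocorticoid and glucocorticoid receptors, which bind DNA at paired half-sites and are abundant in hippocampal neurons.

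Promoter windows from 250 bases before to 50 bases after the gene start were taken from RefSeq (rat build GRCr8) and matched for 29 of the 41 genes. That of Grin2c is shown because it was the gene called with all arrays, that of Gabrb1 because it was called besides Grin2c without the 3 arrays described below, and that of Gabrr2, singled out after its values were seen, because it holds a half-site. Capitals mark the half-site AGAACA, searched on both strands. The Grin2c window is chr10:101005089-101005388 on the minus strand, the Gabrb1 window chr14:36902844-36903143 on the minus strand, and the Gabrr2 window chr5:52248228-52248527 on the plus strand.
Grin2c: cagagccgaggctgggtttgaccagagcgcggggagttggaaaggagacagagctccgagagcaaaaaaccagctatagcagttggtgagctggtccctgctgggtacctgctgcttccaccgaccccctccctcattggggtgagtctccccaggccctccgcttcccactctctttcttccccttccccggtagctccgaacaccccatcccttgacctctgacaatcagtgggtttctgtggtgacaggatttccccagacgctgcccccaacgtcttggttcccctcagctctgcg
Gabrb1: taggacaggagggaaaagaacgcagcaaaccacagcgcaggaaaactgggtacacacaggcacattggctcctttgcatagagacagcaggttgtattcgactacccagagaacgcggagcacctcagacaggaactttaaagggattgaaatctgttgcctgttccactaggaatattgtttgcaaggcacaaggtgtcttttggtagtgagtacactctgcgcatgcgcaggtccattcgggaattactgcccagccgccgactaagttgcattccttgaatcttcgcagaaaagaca
Gabrr2: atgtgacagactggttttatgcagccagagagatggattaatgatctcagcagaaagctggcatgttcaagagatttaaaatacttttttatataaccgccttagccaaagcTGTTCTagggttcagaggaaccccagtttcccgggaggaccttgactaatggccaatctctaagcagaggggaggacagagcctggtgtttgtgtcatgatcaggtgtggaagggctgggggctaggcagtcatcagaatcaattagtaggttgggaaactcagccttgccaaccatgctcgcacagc
The half-site stood in 4 of the 29 windows (13.8%), those of Gabre, Gabrr2, Grm7 and Grm8, against 20.7% of all 33469 windows and 13.2% of the 3208 windows of genes with a tested probe set. The whole palindrome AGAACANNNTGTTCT, which contains the half-site on each strand, stood in 0 of the 29 and in 5 of all windows (0.0149%). These matches describe the letters of the window and not binding.

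Of the 65 probe sets, 47 (33 genes) had a mean at or above the 30th percentile of all probe sets, a log2 value of 6.28, and were tested together with all 6118 probe sets that passed this filter. A single limma fit gave 6 pairwise group differences and an F test over the 4 groups, each with Benjamini-Hochberg adjustment over the 6118, and a probe set was called at an adjusted p under 0.05. Array medians lay between 7.27 and 7.33. As a check of the labels, Sgk1, a gene induced by glucocorticoids, averaged 9.43 ± 0.59 (SD, n = 10) in Sham, 7.93 ± 0.17 (SD, n = 10) in LowCORT, 8.64 ± 0.47 (SD, n = 9) in IntermediateCORT and 8.05 ± 0.27 (SD, n = 10) in LowInj. The LowInj values (7.78 to 8.48) and the LowCORT values (7.73 to 8.27) overlapped, so this check does not separate LowInj from LowCORT.

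Before the group differences, 3 arrays have to be named. On the control probe sets, the 3'-to-5' difference of Gapdh minus that of beta-actin was 0.86 to 2.37 log2 in Sham animal 6 and LowInj animals 34 and 35, and -0.57 to 0.27 in the other 36. This measure does not mark an array on which both differences are high. LowInj animals 38 and 39 read 1.36 and 1.56 for Gapdh and 1.85 and 2.13 for beta-actin. LowCORT animal 28 read 1.15 and 1.68, Sham animal 10 1.15 and 1.52, LowCORT animal 29 1.02 and 1.49, and IntermediateCORT animal 19 1.10 and 1.45. These arrays were kept when the first 3 were left out. Sham animal 6 and LowInj animals 34 and 35 lay apart on receptor subunits as well. All 3 were below all the other animals for 5 of the 47 tested probe sets: Gria2 M36419_s_at, Gria3 X54656_at, Grm7 D16817_at, Gabra2 L08491cds_at and Gabrg1 X57514_at. They were above all the others for Grik5 Z11581_at, Grm4 M90518_at and Gabrb1 X15466cds_at. Of all tested probe sets, 5.56% had the 3 animals below and 5.08% above the others, against 10.6% and 6.38% of the receptor subunits. Gria2 M36419_s_at read 7.43, 7.22 and 7.75 in these animals and 8.60 to 9.78 in the rest. Because 2 of the 3 belong to LowInj and 1 to Sham, the calls and the larger differences in comparisons with these groups are given with all 39 arrays and, as an alternative added after seeing the data, without the 3. Over the 47 receptor subunits, leaving out the 3 moved the differences by a median of 0.02 log2 in LowCORT against Sham (at most 0.16, with 2 probe sets moved by over 0.1 and 3 changing sign, none called). In LowInj against LowCORT the median was 0.04 (at most 0.30, with 10 moved by over 0.1 and 13 changing sign). In LowInj against IntermediateCORT it was 0.04 as well (at most 0.30, with 10 moved by over 0.1 and 14 changing sign). LowInj against Sham had 4 moved by over 0.1 and 7 changing sign, and IntermediateCORT against Sham 2 and 6. In IntermediateCORT against LowCORT, which holds none of the 3, the differences stayed the same and the fitted spread changed.

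**Figure D1:**
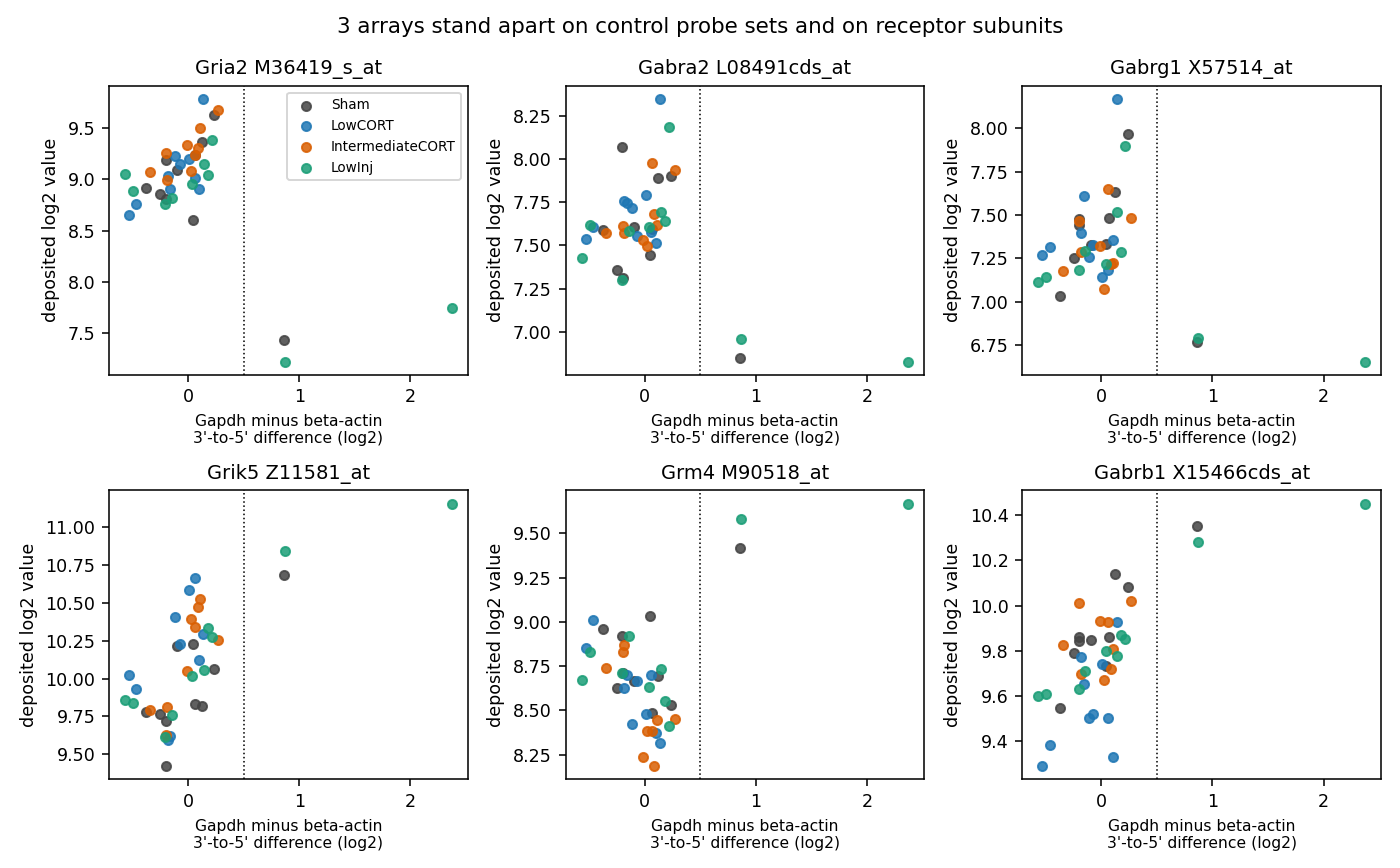
Deposited log2 value of 6 receptor subunit probe sets (vertical axis) against the 3'-to-5' difference of Gapdh minus that of beta-actin (log2, horizontal axis), 1 point per animal, coloured by group; the dotted line is at 0.5. The 3 points to the right of the line are Sham animal 6 and LowInj animals 34 and 35, which lie below all others for Gria2, Gabra2 and Gabrg1 and above all others for Grik5, Grm4 and Gabrb1.

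With all 39 arrays, 1 of the 47 receptor subunit probe sets was called in 1 comparison, Grin2c in IntermediateCORT against LowCORT, where 2.14% of all probe sets were called, 1.5% lower and 0.637% higher. No receptor subunit was called in LowCORT against Sham (1.68% of all called, 1.05% higher and 0.637% lower), LowInj against LowCORT (0.343%), IntermediateCORT against Sham (0.0163%), LowInj against Sham (0.229%), LowInj against IntermediateCORT (0.196%) or by the limma F test (2.27%). At an unadjusted p under 0.05 the members numbered 5 in IntermediateCORT against LowCORT (10.6%, against 11.9% of all probe sets), 4 in LowCORT against Sham (8.51% against 13.6%), 3 in LowInj against LowCORT (6.38% against 7.37%), 3 in IntermediateCORT against Sham (6.38% against 4.22%), 0 in LowInj against Sham (against 5.95%), 7 in LowInj against IntermediateCORT (14.9% against 11.4%) and 7 in the F test (14.9% against 11.8%). Median differences over the 47 lay between -0.03 and 0.01 log2, and between -0.01 and 0.02 over all tested probe sets. The 95% confidence interval stayed within 0.5 log2 of 0 for 44 of the 47 in LowCORT against Sham and for 45 in IntermediateCORT against LowCORT, and within 1 log2 for all 47 in every comparison but LowInj against IntermediateCORT, where 1 Gria2 probe set reached 1.01. The comparisons share groups, LowCORT in particular, and are not independent of each other.

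Without the 3 arrays, 2 receptor subunits were called in LowCORT against Sham, Grin2c and Gabrb1 (2.45% of all probe sets called), and both were called in IntermediateCORT against LowCORT (3.04%) and by the limma F test (2.73%). No receptor subunit was called in the other 4 comparisons (0.343%, 0.0327%, 0.196% and 0.262% of all called, in the order LowInj against LowCORT, IntermediateCORT against Sham, LowInj against Sham and LowInj against IntermediateCORT).

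**Figure D2:**
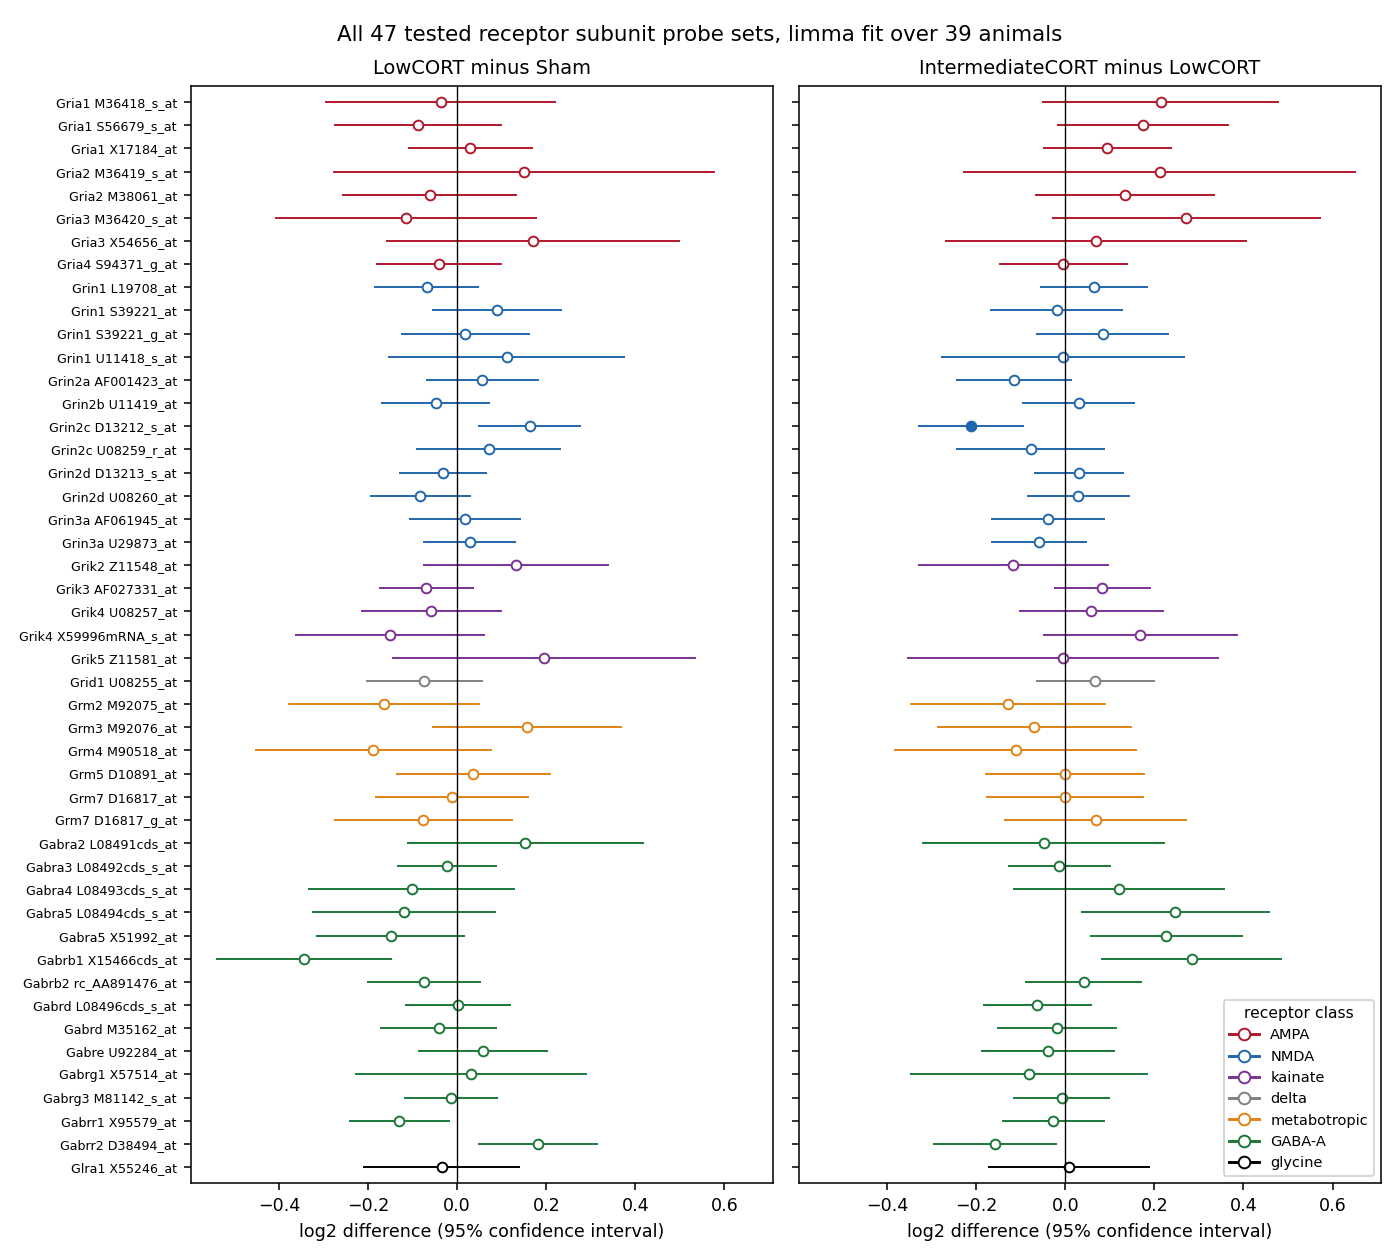
Log2 difference with its 95% confidence interval (horizontal axis) for each of the 47 tested receptor subunit probe sets, coloured by receptor class, for LowCORT minus Sham and IntermediateCORT minus LowCORT in the limma fit over 39 animals; a filled point has an adjusted p under 0.05. Grin2c D13212_s_at at -0.21 is the single filled point, and Gabrb1 X15466cds_at lies at -0.34 on the left and 0.28 on the right.

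Grin2c encodes an NMDA receptor subunit best known from cerebellar granule cells. Its probe set D13212_s_at read 9.54, 9.60 and 9.91 (lowest, median and highest) in Sham, 9.69, 9.81 and 9.97 in LowCORT, 9.44, 9.65 and 9.70 in IntermediateCORT and 9.60, 9.77 and 10.10 in LowInj. LowCORT animals lay highest among the ADX groups that received a pellet alone, and the IntermediateCORT and LowCORT ranges overlapped by 1 hundredth of a log2 unit. The value was 0.21 log2 lower in IntermediateCORT than in LowCORT, 1.16-fold (difference -0.21, SE 0.06, interval -0.33 to -0.09, limma adjusted p = 0.0402), and 9 of 9 IntermediateCORT animals were below the LowCORT mean. LowCORT was 0.16 above Sham (SE 0.06, limma adjusted p = 0.141), with 10 of 10 LowCORT animals above the Sham mean. Without the 3 arrays Sham ran from 9.54 to 9.85, and the limma fit gave a difference of 0.19 between LowCORT and Sham (SE 0.05, interval 0.09 to 0.29, adjusted p = 0.0225) and -0.21 between IntermediateCORT and LowCORT (SE 0.05, adjusted p = 0.00674). IntermediateCORT differed from Sham by -0.05 with all arrays (interval -0.17 to 0.07) and by -0.02 without the 3. LowInj differed from LowCORT by -0.05 with all arrays and by -0.11 without the 3. From IntermediateCORT it differed by 0.16 with all arrays.

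The call on Grin2c was near its threshold with all arrays. It was lost in 12 of the 19 fits that left out 1 animal of the IntermediateCORT or LowCORT groups (IntermediateCORT animals 12, 13, 14, 15, 17, 18 and 19, LowCORT animals 22, 23, 24, 25 and 28), with a limma adjusted p of up to 0.0989 and a difference between -0.23 and -0.19. The second Grin2c probe set, U08259_r_at, read -0.08 in the same comparison (interval -0.24 to 0.09, limma adjusted p = 0.793) and was not called. The 2 probe sets therefore had the same sign and different sizes there. In LowInj against IntermediateCORT each read 0.16 with all arrays, and in LowInj against LowCORT U08259_r_at read 0.09, with no call.

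**Figure D3:**
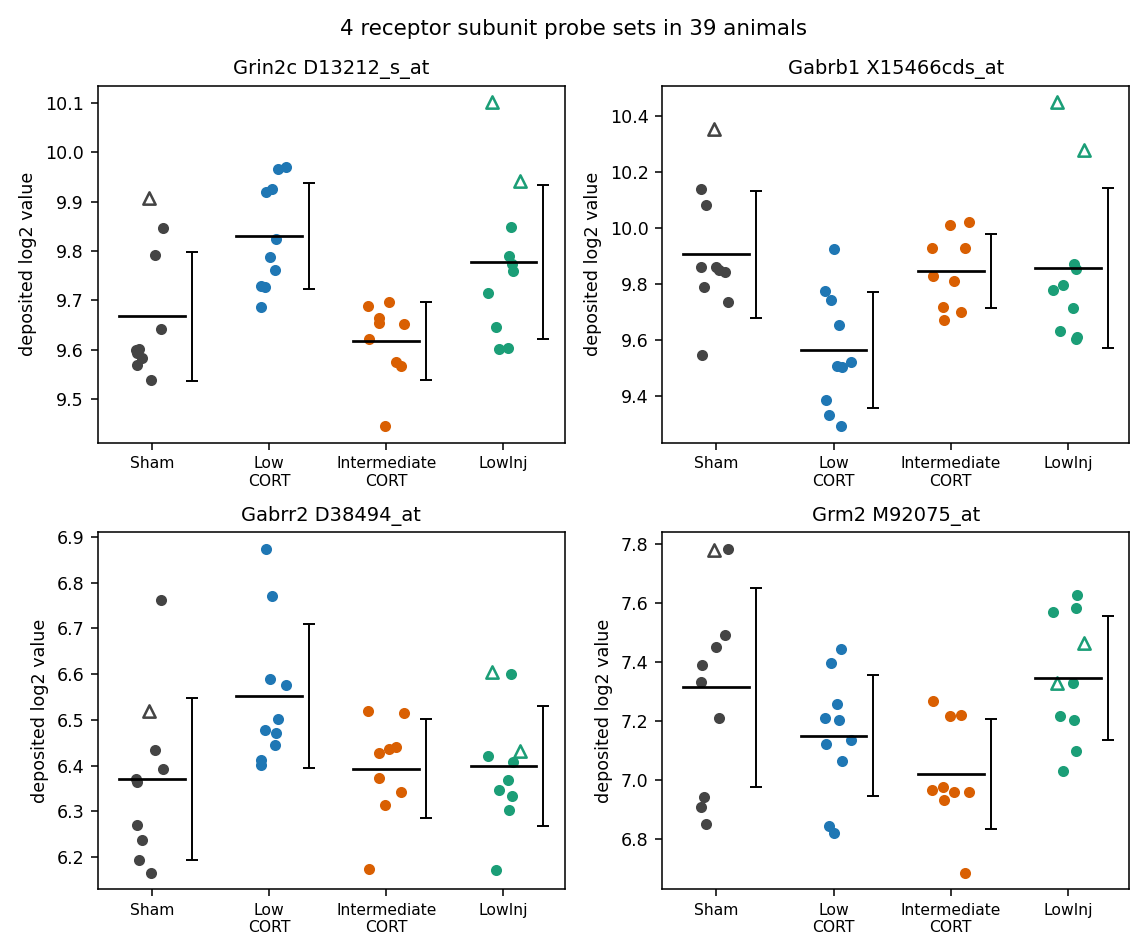
Deposited log2 values of Grin2c, Gabrb1, Gabrr2 and Grm2 (vertical axes) in the 4 groups, 1 point per animal, with the group mean as a line and its SD as a bar; open triangles are Sham animal 6 and LowInj animals 34 and 35. LowCORT animals sit high for Grin2c and low for Gabrb1, and the triangles lead both the Sham and LowInj groups for Gabrb1.

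The other NMDA receptor subunits differed by less than Grin2c D13212_s_at in LowCORT against Sham and in IntermediateCORT against LowCORT. This did not hold in every comparison: in LowInj against Sham Grin1 U11418_s_at read 0.14 and D13212_s_at 0.11. Over the 12 tested NMDA probe sets, both of Grin2c included, the median difference was 0.02 in LowCORT against Sham and -0.01 in IntermediateCORT against LowCORT. All 12 intervals stayed within 0.5 log2 in each of the 6 comparisons. Grin1, the obligatory subunit, had 4 tested probe sets whose signs differed in 5 of 6 comparisons; in LowCORT against Sham they read -0.07 (L19708_at), 0.09 (S39221_at), 0.02 (S39221_g_at) and 0.11 (U11418_s_at). Grin2a AF001423_at, the subunit typical of mature forebrain synapses, read 8.82, 8.94 and 9.46 in LowCORT and 8.78, 8.89 and 8.98 in IntermediateCORT, a difference of -0.12 (interval -0.24 to 0.01, limma adjusted p = 0.505). Grin2b U11419_at, which predominates early in development, differed by 0.03 in that comparison and by -0.05 in LowCORT against Sham. Both Grin3a probe sets, AF061945_at and U29873_at, lay within 0.1 of 0 in all 6 comparisons.

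None of the 8 tested AMPA receptor probe sets (4 genes) was called in any comparison. In IntermediateCORT against LowCORT 7 of the 8 were positive, with a median of 0.15 against 0.01 for all tested probe sets. The 7 include several probe sets of 1 gene and are not independent. In IntermediateCORT against Sham 7 of the 8 were positive as well, with a median of 0.14, and 0.10 without the 3 arrays. The median in LowCORT against Sham was -0.04. Gria1 M36418_s_at, the subunit whose insertion accompanies synaptic potentiation, read 8.75, 9.17 and 9.63 in Sham, 8.76, 9.19 and 9.30 in LowCORT, 9.07, 9.32 and 9.44 in IntermediateCORT and 7.87, 9.09 and 9.73 in LowInj. All groups overlapped, and the difference between IntermediateCORT and LowCORT was 0.21 (interval -0.05 to 0.48, limma adjusted p = 0.578). The other Gria1 probe sets read 0.17 (S56679_s_at) and 0.09 (X17184_at) there. Gria3 M36420_s_at read 0.27 (interval -0.03 to 0.57), while Gria3 X54656_at read 0.07.

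Gria2 makes AMPA receptors impermeable to calcium, and its 2 probe sets gave the widest spread within a gene, 0.45 log2. In LowInj against IntermediateCORT M36419_s_at was -0.57 (interval -1.01 to -0.13, limma adjusted p = 0.283) and M38061_at was -0.12 (interval -0.32 to 0.08). M36419_s_at read 7.22, 8.92 and 9.39 in LowInj and 9.00, 9.25 and 9.68 in IntermediateCORT. Without the 3 arrays LowInj ran from 8.76 to 9.39 and the difference of M36419_s_at fell in size to -0.27 (interval -0.52 to -0.01, limma adjusted p = 0.604), and that of Gria1 M36418_s_at went from -0.27 to -0.10. All 8 AMPA probe sets were lower in LowInj than in IntermediateCORT with all arrays, and 7 of 8 without the 3. Their median was -0.15, beside 0.02 over all tested probe sets, and -0.09 without the 3. The 8 come from 4 genes, and this comparison shares the IntermediateCORT animals with those against LowCORT and Sham, so these counts are not independent. Gria4 S94371_g_at stayed within 0.1 of 0 in all 6 comparisons.

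Kainate and delta receptor subunits gave no call among 5 and 1 tested probe sets. Grik3 AF027331_at and both Grik4 probe sets (U08257_at and X59996mRNA_s_at) were lower in LowCORT than in Sham, by -0.07, -0.06 and -0.15, with intervals that include 0. Grik5 Z11581_at had the largest kainate difference in that comparison, 0.19 (interval -0.14 to 0.53), and read 0.28 without the 3 arrays (limma adjusted p = 0.336). It was chosen after its values were seen. Grid1 U08255_at, a synapse-organising relative of the ionotropic receptors, read -0.07 in LowCORT against Sham and 0.07 in IntermediateCORT against LowCORT.

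Of the 6 tested metabotropic probe sets none was called, and 2 (33.3%, beside 11.8% of all tested probe sets) had an unadjusted limma F test p under 0.05, Grm2 and Grm4. Grm2 M92075_at, a presynaptic receptor coupled to inhibitory G proteins, read 6.85, 7.36 and 7.78 in Sham, 6.82, 7.17 and 7.44 in LowCORT, 6.68, 6.96 and 7.27 in IntermediateCORT and 7.03, 7.33 and 7.63 in LowInj. IntermediateCORT was lowest, 9 of 9 animals were below the Sham mean, and the groups overlapped. LowInj minus IntermediateCORT was 0.32 (SE 0.11, interval 0.11 to 0.54, limma adjusted p = 0.22) and 0.31 without the 3 arrays (adjusted p = 0.364). IntermediateCORT minus Sham was -0.29 (interval -0.51 to -0.08, limma adjusted p = 0.874). Grm4 M90518_at, a receptor of the same inhibitory kind, was 0.37 higher in LowInj than in IntermediateCORT (interval 0.10 to 0.64, limma adjusted p = 0.271); without the 3 arrays, which hold its 3 highest values of 9.42, 9.58 and 9.67, the difference was 0.18 (interval -0.02 to 0.38). Grm5 D10891_at, the excitatory group member of CA1 dendrites, lay within 0.05 of 0 in all 6 comparisons.

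None of the 14 tested GABA-A probe sets (12 genes) was called with all arrays. At an unadjusted p under 0.05 the limma F test had 4 (28.6%, beside 11.8% of all tested). The pairwise limma tests had 4 in IntermediateCORT against LowCORT (28.6%, beside 11.9%) and 3 in LowCORT against Sham (21.4%, beside 13.6%). LowInj against IntermediateCORT had 1 (7.14%, beside 11.4%) and LowInj against Sham 0 (beside 5.95%). Among the 14, Gabrb1 X15466cds_at came closest to a call. This beta subunit read 9.55, 9.85 and 10.35 in Sham, 9.29, 9.51 and 9.93 in LowCORT, 9.67, 9.83 and 10.02 in IntermediateCORT and 9.60, 9.79 and 10.45 in LowInj. LowCORT was lowest and overlapped every other group. LowCORT minus Sham was -0.34 (SE 0.10, interval -0.54 to -0.15, limma adjusted p = 0.0566, 9 of 10 animals below the Sham mean), IntermediateCORT minus LowCORT was 0.28 (SE 0.10, limma adjusted p = 0.156, 9 of 9 animals above the LowCORT mean) and LowInj minus LowCORT was 0.30 (limma adjusted p = 0.325, 10 of 10). Without the 3 arrays, which hold its 3 highest values, LowCORT fell by 0.29 against Sham (interval -0.44 to -0.14, limma adjusted p = 0.0225), IntermediateCORT rose by 0.28 against LowCORT (interval 0.13 to 0.43, adjusted p = 0.0218) and LowInj minus LowCORT was 0.17 (interval 0.01 to 0.32, adjusted p = 0.92). IntermediateCORT and Sham differed by -0.01 without the 3 (interval -0.16 to 0.14).

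Gabrb1 was also called in LowCORT against Sham when the 3'-to-5' differences of Gapdh and beta-actin were covariates (-0.27, limma adjusted p = 0.00782), and that fit removed 41.4% of the residual SD of this probe set. Both covariates were higher on average in LowCORT, which holds none of the 3 arrays, than in Sham or IntermediateCORT. The beta-actin difference averaged 0.93 in LowCORT, 0.68 in Sham, 0.65 in IntermediateCORT and 0.79 in LowInj. That of Gapdh averaged 0.81, 0.70, 0.63 and 1.03 in the same order. LowCORT animals 28, 20 and 29 held the lowest Gabrb1 values of their group (9.29, 9.33 and 9.38). They also had its highest Gapdh differences (1.15, 1.14 and 1.02). With all other arrays kept, leaving out 1 animal called Gabrb1 in LowCORT against Sham in 6 of 39 fits (Sham animal 10, LowCORT animals 21, 22 and 26, LowInj animals 34 and 35), with a limma adjusted p between 0.0231 and 0.122. RefSeq places Gabrb1 next to Gabra4 on chromosome 14, followed by Gabra2 and Gabrg1. None of these neighbours was called, and in LowCORT against Sham they read -0.10 (Gabra4 L08493cds_s_at), 0.15 (Gabra2 L08491cds_at) and 0.03 (Gabrg1 X57514_at); without the 3 arrays Gabra2 was 0.07 and Gabrg1 -0.04. Gabrg1 was named for its place and not by the rule for named probe sets.

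**Figure D4:**
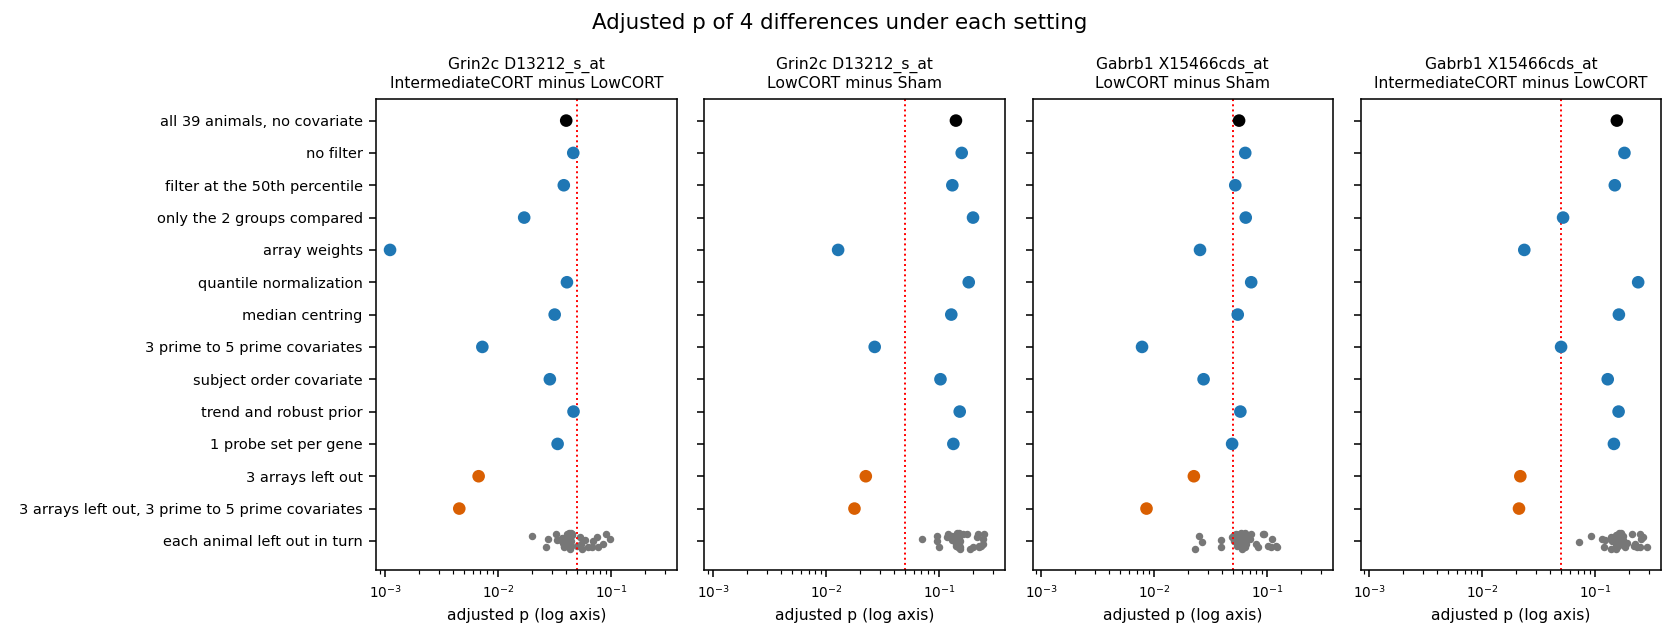
Adjusted p on a log axis (horizontal) of Grin2c and Gabrb1 in 2 comparisons each, under each setting of the limma fit (rows); the dotted line is at 0.05, and grey points are the 39 fits that leave out 1 animal. Grin2c in IntermediateCORT against LowCORT is left of the line in every named setting, while the other 3 differences cross it with array weights and without the 3 arrays.

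Gabra5, the alpha subunit typical of receptors outside the synapse on hippocampal pyramidal cells, had 2 tested probe sets, whose signs agreed in 4 of 6 comparisons. L08494cds_s_at read 6.31, 6.69 and 7.09 in LowCORT and 6.67, 6.89 and 7.28 in IntermediateCORT, a difference of 0.25 (interval 0.04 to 0.46, limma adjusted p = 0.297). X51992_at read 8.30, 8.71 and 8.78 in LowCORT and 8.61, 8.87 and 9.01 in IntermediateCORT, a difference of 0.23 (interval 0.06 to 0.40, limma adjusted p = 0.196). Neither passed the test, the groups overlapped in both, and the adjusted p was 0.16 and 0.119 without the 3 arrays.

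Gabrr1 and Gabrr2 encode rho subunits, known best from the retina, and lie next to each other on chromosome 5. Gabrr2 D38494_at, chosen after its values were seen, read 6.17, 6.37 and 6.76 in Sham, 6.40, 6.49 and 6.87 in LowCORT, 6.17, 6.43 and 6.52 in IntermediateCORT and 6.17, 6.39 and 6.60 in LowInj, close to the filter at 6.28. LowCORT was 0.18 above Sham (interval 0.05 to 0.31, limma adjusted p = 0.167, 10 of 10 animals above the Sham mean), and IntermediateCORT was -0.16 from LowCORT (adjusted p = 0.303). Gabrr1 X95579_at had the other sign, -0.13 in LowCORT against Sham (limma adjusted p = 0.264) and -0.16 in IntermediateCORT against Sham (adjusted p = 0.824). Gabrb2 rc_AA891476_at and the delta subunit Gabrd (L08496cds_s_at and M35162_at) differed by at most 0.11 in any comparison.

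Glycine receptors had 1 tested probe set, Glra1 X55246_at, the adult spinal alpha subunit, which lay within 0.07 of 0 in all 6 comparisons. Tested probe sets outside the rule for named ones gave no call either: in LowCORT against Sham Grm3 M92076_at read 0.16, Grik2 Z11548_at 0.13, Gabre U92284_at 0.06, Gabrg3 M81142_s_at -0.01, Gabra3 L08492cds_s_at -0.02, Grm7 -0.01 (D16817_at) and -0.08 (D16817_g_at), and Grin2d -0.03 (D13213_s_at) and -0.08 (U08260_at). The 18 member probe sets below the filter include the only ones for Grik1, Grm6, Grm8, Gabra6, Gabrp, Gabrr3, Glra2 and Glra3. In a fit with no filter none of the 18 was called, and 3 (16.7%) had an unadjusted p under 0.05 in LowCORT against Sham, beside 13.6% of the probe sets that passed the filter; the largest was Glra2 X57281_at, a fetal alpha subunit, at 0.27 (limma adjusted p = 0.112).

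Partners of these receptors came from lists chosen with earlier results of these data known. Among 42 tested probe sets (24 genes) of glutamate receptor scaffolds, trafficking proteins and kinases, 1 was called in IntermediateCORT against LowCORT and 1 in LowInj against IntermediateCORT. Of all tested probe sets, 2.14% were called in the first comparison and 0.196% in the second. At an unadjusted p under 0.05 the list had 9 in LowCORT against Sham (21.4%, beside 13.6% of all tested) and 10 in IntermediateCORT against LowCORT (23.8%, beside 11.9%), with medians of 0.01 and 0.08. Arc U19866_at, an activity-induced protein that drives AMPA receptor endocytosis, rose by 0.66 in IntermediateCORT against LowCORT (SE 0.16, limma adjusted p = 0.0207, and 0.00996 without the 3 arrays). Camk2a M16960_s_at, a kinase that phosphorylates Gria1, fell by 0.57 in LowInj against IntermediateCORT (SE 0.12, limma adjusted p = 0.0251); without the 3 arrays it fell by 0.39 there (adjusted p = 0.0182) and rose by 0.44 in IntermediateCORT against Sham (adjusted p = 0.00794) and by 0.33 in IntermediateCORT against LowCORT (adjusted p = 0.0082). The second Camk2a probe set, J02942_at, read -0.10 in LowInj against IntermediateCORT and was not called. Of 21 probe sets (8 genes) for glutamate synthesis and uptake, 0 were called with all arrays by limma, with 3 (14.3%, beside 13.6% of all tested) at an unadjusted p under 0.05 in LowCORT against Sham; without the 3 arrays Got1 J04171_at, a transaminase that makes glutamate, fell by 0.22 in LowCORT against Sham (adjusted p = 0.00979) and rose by 0.18 in IntermediateCORT against LowCORT (adjusted p = 0.0411).

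On the inhibitory side, the 18 probe sets (11 genes) of GABA-A and glycine receptor partners gave 0 calls by limma, with 2 (11.1%, beside 13.6% of all tested) at an unadjusted p under 0.05 in LowCORT against Sham. Of 12 probe sets (10 genes) for GABA and glycine synthesis, transport and breakdown, 2 fell in LowCORT against Sham, beside 0.637% of all tested. At an unadjusted limma p under 0.05 the list had 6 there (50%, beside 13.6% of all tested). The 2 called were Gad1 X57573_at, which makes GABA, lower by 0.31 (SE 0.07, limma adjusted p = 0.00758) and Abat D87839_at, which degrades it, lower by 0.20 (SE 0.05, adjusted p = 0.0327). The second Abat probe set, D87839_g_at, read -0.22 (adjusted p = 0.28). Without the 3 arrays Gad1 fell by 0.33 (adjusted p = 0.00204) and Abat by 0.20 (adjusted p = 0.034).

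Markers of cell types were read beside these genes. Of 15 probe sets in the interneuron list, which also holds Gad1, 2 (Gad1 and Calb2) fell in LowCORT against Sham, beside 0.637% of all tested. At an unadjusted limma p under 0.05 the list had 9 (60%, beside 13.6% of all tested). Its median difference was -0.21 against -0.01 over all tested probe sets. The list of general neuron markers (18 probe sets) had a median of -0.19 in the same comparison, with 0 calls by limma and 5 (27.8%) at an unadjusted p under 0.05, and the astrocyte list (15 probe sets) a median of -0.11, with 0 calls and 2 (13.3%). In IntermediateCORT against LowCORT the medians were 0.12 for interneurons, 0.14 for neurons and 0.06 for astrocytes, with 0 calls by limma and 2, 1 and 0 probe sets at an unadjusted p under 0.05. Over the animals of a group, the interneuron list mean ran from 8.93 to 9.08 in Sham, 8.69 to 8.98 in LowCORT, 8.68 to 9.06 in IntermediateCORT and 8.81 to 9.03 in LowInj; the general neuron list mean ran from 9.25 to 9.99, 9.12 to 10.00, 9.31 to 9.89 and 8.94 to 9.88 in the same order. The part of neuron and interneuron content in the differences of Gabrb1 and Gad1 was not tested. Of the CA1 pyramidal list, 1 of 8 genes was on the array, Pou3f1, and it was not called. Of the cerebellar list Calb1 M31178_g_at, also a CA1 neuron gene, was the single call, -0.61 in LowCORT against Sham and 0.60 in IntermediateCORT against LowCORT. That list had 3 tested probe sets, and 0.637% of all tested were called in each of these directions. The microglial list had 1 call of 10 probe sets in each of these comparisons and the vascular list 1 and 2 of 7, beside 1.68% and 2.14% of all tested probe sets. In IntermediateCORT against LowCORT the thalamus, striatum and cortex list had 1 call of 5 and the oligodendrocyte list 1 of 13. Both were lower, beside 1.5% of all tested probe sets called lower. The CA3 and CA2 list had 0 calls of 7 there, with 3 (42.9%, beside 11.9% of all tested) at an unadjusted limma p under 0.05. Without the 3 arrays Prkcd, of the thalamus list, read -0.29 there (limma adjusted p = 0.0265). The part of tissue outside CA1 in the Grin2c difference was not tested.

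Residual spread set the size of difference that could be seen. The residual SD of the 47 tested receptor subunits had a median of 0.18 log2 and reached 0.496 for Gria2 M36419_s_at. With the 3'-to-5' covariates the median fell to 0.148, a median reduction of 16% per probe set against 7.68% over all tested probe sets, and 25.5% of the members against 21.7% of all lost over 20%. Among 11 genes with several tested probe sets, the signs of the probe sets differed in at least 1 comparison for 9, so a value for a single probe set is not a value for the gene.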

How the data were processed

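RNA from 39 CA1 samples, 1 animal each, had been hybridised by the authors to Affymetrix rat arrays. The deposited values are log2, from 2.82 to 14.4; the submitters' processing notes name MAS5, RMA and R 2.7.1, but no role for any. Groups came from the sample labels, which name no batch, day or pairing. Of 8799 probe sets, 59 controls and those with a mean under the 30th percentile were left out, leaving 6118. These were fitted with limma 3.58.1 (R 4.3.3; 1 mean per group, 35 residual degrees of freedom, moderated 2-sided tests, Benjamini-Hochberg adjustment, called under 0.05), after testing on simulated data. Symbols came from the platform annotation; all 65 members matched RefSeq by gene ID, with 0 symbols changed.

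The members and lists were chosen with earlier results of these data known. Named were called probe sets, the 2 smallest F test p per class, preset principal subunits, and all probe sets of genes that disagree; others are marked. Alternatives were no filter, the 50th percentile, only the compared groups, array weights, quantile normalization, median centring, 3'-to-5' covariates, animal order, a trended robust prior, 1 probe set per gene and each animal left out. Leaving out 3 arrays, with and without the covariates, was added after seeing the data. The number of arrays limits the precision.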

Additional observations from a re-analysis of the deposited data

Results flagged for a closer look

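For the 35 named probe sets, each group of 9 or 10 animals was screened for a highest or lowest animal whose gap to its neighbour was large for the range of the group (Dixon's criterion). It marked 12 of 140 sets of values (8.57%), and chance marks about 1 in 20 (5%). Sham animal 6 was lowest in its group for Gria2 M36419_s_at at 7.43 (next 8.60) and for Gria3 X54656_at at 6.41 (next 7.31), and LowInj animal 35 was lowest for Gria1 M36418_s_at at 7.87 (next 8.82); both animals are among the 3 that stand apart on control probe sets. LowCORT animal 21 was highest in its group for Gria2 M36419_s_at at 9.78 (next 9.23), Gria3 M36420_s_at at 8.50 (next 7.75) and Gabra2 L08491cds_at at 8.35 (next 7.79), and was highest in LowCORT for 13 of the 47 tested members. IntermediateCORT animal 11 was lowest for Gria2 M38061_at at 9.08 (next 9.50) and Gabrb2 rc_AA891476_at at 9.76 (next 10.04), and highest for Grik4 X59996mRNA_s_at at 7.29 (next 6.85). In LowInj, animal 33 was highest for Grin1 S39221_at at 6.55 (next 6.38), animal 30 for Grin1 S39221_g_at at 9.08 (next 8.58) and animal 39 for Gabra5 X51992_at at 9.25 (next 8.91).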

How the results depend on the processing

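Receptor subunits called, main count first, changed as follows. By the F test 0 became 2 with array weights, 2 with 3'-to-5' covariates, 1 with animal order as a covariate, and 2 without the 3 arrays with or without those covariates. In LowCORT against Sham 0 became 3 (Grin2c, Gabrb1 and Gabrr2), 2, 1, 2 and 2 in that order, and 1 with 1 probe set per gene. In IntermediateCORT against LowCORT 1 became 2 with array weights and 2 without the 3 arrays, with or without covariates. GABA-A probe sets called in any comparison went from 0 to 2 with array weights and to 1 with 3'-to-5' covariates, animal order, 1 probe set per gene and without the 3 arrays, with or without covariates. Leaving out each animal in turn gave 0 to 1 for the F test, LowCORT against Sham, IntermediateCORT against LowCORT, NMDA and GABA-A counts, and 0 to 0 for the other comparisons and classes; Gabrr2 was called in LowCORT against Sham without Sham animal 9 (limma adjusted p = 0.0411). The cause of these changes was not tested. No other setting changed a count of called members.

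Over all probe sets, counts moved by over 1.5 times as follows. LowCORT against Sham went from 103 to 170 with array weights, 175 with 3'-to-5' covariates, 185 with animal order and 270 without the 3 arrays with covariates; IntermediateCORT against LowCORT from 131 to 338 and 330 with array weights and without the 3 arrays with covariates; the F test from 139 to 307, 224 and 336 with array weights, animal order and without the 3 arrays with covariates. Of the smaller counts over all settings, LowInj against LowCORT (21) ranged from 14 with only the compared groups to 50 with array weights, IntermediateCORT against Sham (1) from 0 with 1 probe set per gene to 12 with 3'-to-5' covariates, LowInj against Sham (14) from 1 with only the compared groups to 33 with array weights, and LowInj against IntermediateCORT (12) from 0 to 105 under those same settings. With 1 animal left out, LowCORT against Sham gave 66 to 131, the lowest without Sham animal 1, and no other animal moved it by over 1.5 times. The 4 smaller counts then ran from 10 (without LowInj animal 34) to 28, 1 to 3, 9 to 22 (without Sham animal 6) and 4 (without IntermediateCORT animals 13 or 16) to 27 (without LowInj animal 33). Called values of the 35 named probe sets never changed sign, uncalled ones did in 442 of 10584 cases, 12 calls were lost and 29 gained. No paired analysis was possible because each subject number belongs to 1 animal.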
